A study of Homo sapiens with 4 samples.

Results

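Galectins are secreted and intracellular lectins that bind galactose-containing glycans, above all N-acetyllactosamine, and the 9 galectin genes described here are LGALS1, LGALS2, LGALS3, LGALS4, LGALS8, LGALS9, LGALS12, LGALS13 and LGALS14. They were listed by gene symbol and chosen by a reading of the measured ratios themselves, with LGALS3 at their head. The array held 11 features for these 9 genes, out of 31332 features with a single gene symbol that measured 18334 genes in all. Each member was read on all 4 arrays, and none was dropped by a filter on low values.

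The cells were LNCaP, an androgen-sensitive human prostate carcinoma line from a lymph node metastasis. All dishes were first held without serum for 24 h, vehicle dishes included. They then received either 1 µM 5-azacytidine, a cytidine analogue that traps DNA methyltransferases, or the solvent dimethyl sulphoxide (DMSO), for 24 h or 48 h. Each of the 4 two-colour Agilent arrays, 2 for each time, set treated RNA (Cy5) against vehicle RNA of the same time (Cy3), and no dye swap was made. Values below are log2 ratios of azacytidine over DMSO, so a value of 1 is a doubling, and errors are SD over the 2 arrays of a time. The sources do not say whether replicate arrays came from separate cultures, so the spread between them may be technical. A ratio holds no level: how much of a transcript a cell made, and whether LNCaP markers were present, could not be read from it, and more cells expressing a gene cannot be told apart from more RNA per cell.

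Galectins share a carbohydrate recognition domain and fall into 3 structural types. Prototype galectins have a single such domain and often pair into dimers, tandem repeat galectins have a pair of different domains on one chain, and galectin-3 is the only chimera type, with a single domain joined to a long flexible tail through which it forms larger complexes. Outside the cell they cross-link glycoproteins into lattices, and inside it some of them recognise glycans exposed on damaged lysosomes. In the prostate, galectin-3 is known to be reduced in many carcinomas, and its gene is known to carry a methylated promoter in LNCaP cells.

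DNMT1, which encodes the maintenance DNA methyltransferase that 5-azacytidine traps, was lower in treated cells at both times. Its ratio was -0.62 ± 0.0566 at 24 h and -0.68 ± 0.0529 at 48 h (n = 2 arrays each; limma adjusted p = 0.0192 and 0.0116). Its transcript does not report on the amount or activity of the protein.

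Since the drug acts on CpG methylation, the promoter windows of the 3 galectins with the highest ratios are shown, each running from 250 bases before the gene's start to 50 bases after it (RefSeq, GRCh38.p14). Capitals mark CpG dinucleotides. The LGALS3 window lies at chr14:55129002-55129301 on the plus strand, that of LGALS2 at chr22:37580038-37580337 on the minus strand, and that of LGALS4 at chr19:38812896-38813195 on the minus strand.
LGALS3: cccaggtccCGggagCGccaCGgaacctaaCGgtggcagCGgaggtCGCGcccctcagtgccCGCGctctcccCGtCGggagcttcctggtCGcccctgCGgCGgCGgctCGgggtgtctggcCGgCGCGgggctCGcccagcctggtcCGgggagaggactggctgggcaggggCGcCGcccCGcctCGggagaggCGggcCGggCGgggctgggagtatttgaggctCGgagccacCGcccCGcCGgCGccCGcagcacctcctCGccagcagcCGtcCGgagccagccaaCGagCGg
LGALS2: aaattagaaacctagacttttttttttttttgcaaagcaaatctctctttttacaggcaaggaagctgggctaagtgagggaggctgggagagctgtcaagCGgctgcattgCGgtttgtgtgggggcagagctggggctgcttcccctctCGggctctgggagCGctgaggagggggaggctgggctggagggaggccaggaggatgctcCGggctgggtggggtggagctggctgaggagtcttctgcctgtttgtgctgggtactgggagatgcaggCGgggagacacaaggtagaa
LGALS4: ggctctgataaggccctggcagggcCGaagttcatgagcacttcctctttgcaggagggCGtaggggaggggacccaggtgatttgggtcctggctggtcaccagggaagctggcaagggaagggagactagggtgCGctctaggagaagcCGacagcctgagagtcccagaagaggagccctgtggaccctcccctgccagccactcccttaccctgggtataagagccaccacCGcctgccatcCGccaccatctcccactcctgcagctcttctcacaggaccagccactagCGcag

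The LGALS3 window was rich in CpG, whereas those of LGALS2 and LGALS4 were poor in it. LGALS3 held 39 CpG in 300 bases at a G+C content of 78.3%, with 0.848 of the number that its base composition would give, and 91.3% of the 35116 promoter windows of the same length held fewer. LGALS2 held 6 CpG, with an observed over expected ratio of 0.283, and LGALS4 held 7, with a ratio of 0.238. The median window held 14 CpG, with quartiles at 4 and 28. The windows of LGALS8, LGALS9, LGALS13 and LGALS14 held 2 CpG each, and 11.0% of all windows held fewer. LGALS1 and LGALS12 had no entry in the promoter table. The methylation state of these windows was not measured.

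Short motifs were searched on both strands of the 7 windows. GGGCGG, the core of the GC box, stood once on the forward and 2 times on the reverse strand of LGALS3 and in no other galectin window, and 45.0% of all windows held it on either strand. TATAAA was found 2 times on the reverse strand of LGALS8, and 11.5% of windows held it. CCAAT was found once on the forward strand of LGALS13 and once on that of LGALS14, and 34.6% of windows held it. No window held more than a single kind of motif, so no match overlapped another motif, and a match describes letters only.

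**Figure D1:**
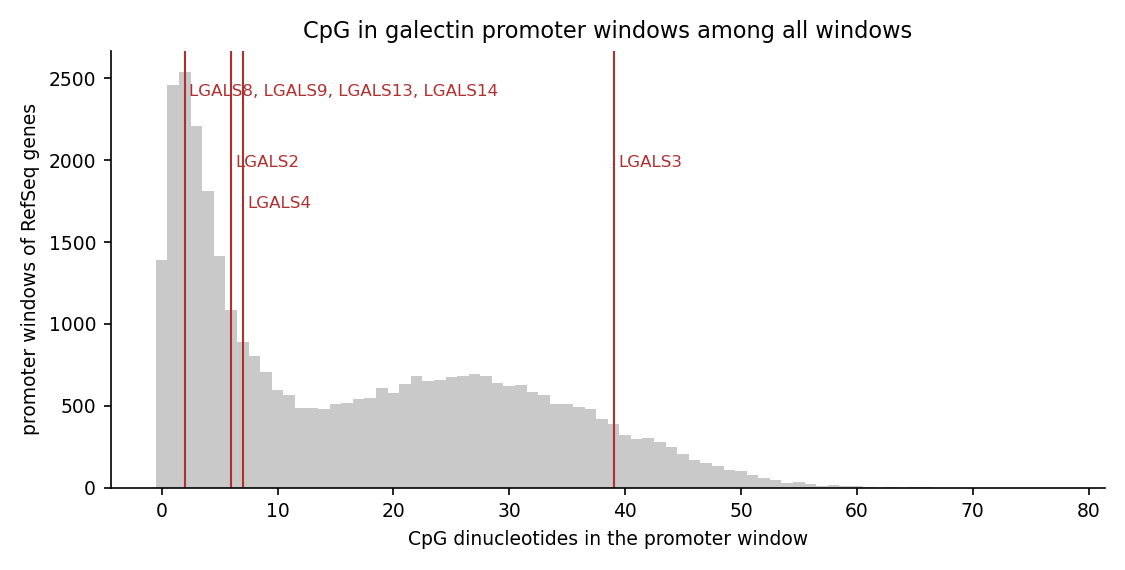
Histogram of the number of CpG dinucleotides (x axis) in the 300-base promoter windows of RefSeq genes (y axis, number of windows). Red lines mark the 7 galectins with a window, of which LGALS3 lies at 39 and the other 6 between 2 and 7.

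Over all genes with a promoter window and a ratio other than 0 on some array, high ratios were not confined to windows of either kind. The genes were binned by CpG number, and genes are not independent replicates. Of 1708 genes with 0 to 4 CpG, 16.9% had a mean ratio above 1 at 24 h and 22.0% at 48 h. Of 1285 genes with 5 to 9 CpG, as in LGALS2 and LGALS4, these shares were 20.0% and 23.7%. Of 2322 genes with 10 to 19 CpG they were 11.8% and 13.3%. Of 8292 genes with 20 or more CpG, as in LGALS3, they were 9.47% and 9.19%.

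LGALS3 encodes galectin-3, the chimera type, and had by far the highest ratio of the 9 galectins, in the direction given by the labelled dyes and the software's convention. At 24 h it was 7.57 on replicate 1 and 7.72 on replicate 2, and at 48 h it was 9.73 and 9.20. The means were 7.64 ± 0.103, a ratio of 200-fold on the linear scale, and 9.46 ± 0.38, or 706-fold. Among the 31332 single-symbol features the LGALS3 feature ranked 2nd and 3rd on the 24 h arrays and 1st and 2nd on the 48 h arrays, and among genes its mean ranked 2nd at both times. Both 48 h arrays lay above both 24 h arrays. These ratios are why the gene heads the list, so they are given as a description. The table does not state the base of its values, and read as log2 instead of log10 the means would be 2.30 and 2.85. Nor does it state the direction, and with the ratio turned every sign here would turn, placing LGALS3 among the lowest genes.

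The prototype galectins ranged from a high ratio to none. LGALS2 encodes galectin-2, known mainly from the stomach and intestine. It had ratios of 2.70 and 3.63 at 24 h and of 3.95 and 4.18 at 48 h. Its means were 3.16 ± 0.653 and 4.06 ± 0.166, or 8.96-fold and 16.7-fold, ranking 259th and 151st among genes. All 4 arrays were above 2, and the times did not overlap.

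LGALS1 encodes galectin-1, a widely expressed galectin known to kill activated T cells and to act in adhesion. Its ratios were small and alike on all arrays, with 0.59 and 0.86 at 24 h and 0.81 and 0.70 at 48 h. The means were 0.72 ± 0.195 and 0.75 ± 0.0798, or 1.65-fold and 1.69-fold. The arrays of the times overlapped.

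LGALS13 and LGALS14 encode placental galectins. LGALS13 was listed at 0 on 24 h replicate 1 and 48 h replicate 2, at -1.81 on 24 h replicate 2 and at -0.11 on 48 h replicate 1, so a single array carried nearly all of its deviation. LGALS14 was listed at exactly 0 on all 4 arrays. Exact zeros stood in 6011 to 6695 features of each array, and 1089 genes were at 0 throughout. The table does not say why a value is 0, so an unchanged ratio cannot be told apart from one that was not measured. Zeros were kept as values in the gene means and in the limma fit, except where stated.

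The tandem repeat galectins differed from each other. LGALS4 encodes galectin-4, an epithelial galectin of the gut that takes part in apical protein sorting. Its ratios were 1.74 and 1.88 at 24 h and 1.40 and 1.29 at 48 h, with means of 1.81 ± 0.101 and 1.34 ± 0.076, or 3.51-fold and 2.54-fold. Both 48 h arrays lay below both 24 h arrays.

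LGALS9 encodes galectin-9, a ligand of TIM-3, an inhibitory receptor on T cells. Its ratios were 1.25 and 0.76 at 24 h but 0.57 and -1.07 at 48 h, where the arrays had opposite signs and again lay below those of 24 h. The means were 1.01 ± 0.346 and -0.25 ± 1.16, and without 48 h replicate 2 the 48 h value was 0.57. LGALS12 encodes an adipocyte galectin. Its arrays, at -0.61 and -0.04 and then at -0.14 and 0.62, scattered about 0.

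LGALS8 encodes galectin-8, which marks ruptured vesicles for autophagy, and it was measured by 3 features that disagreed at 48 h. As a mean over features its ratios were 0.17 and 0.49 at 24 h and -0.05 and -0.45 at 48 h. A feature designed on the accession L78132 read -0.09 and 0.83 at 24 h and -1.51 and -2.56 at 48 h. Both features designed on the RefSeq transcript were above 0 on all arrays, with 48 h means of 0.67 ± 0.096 and 0.62 ± 0.002. The negative 48 h mean of LGALS8, -0.25 ± 0.282, thus came from the first feature, and the median of its features was 0.61.

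**Figure D2:**
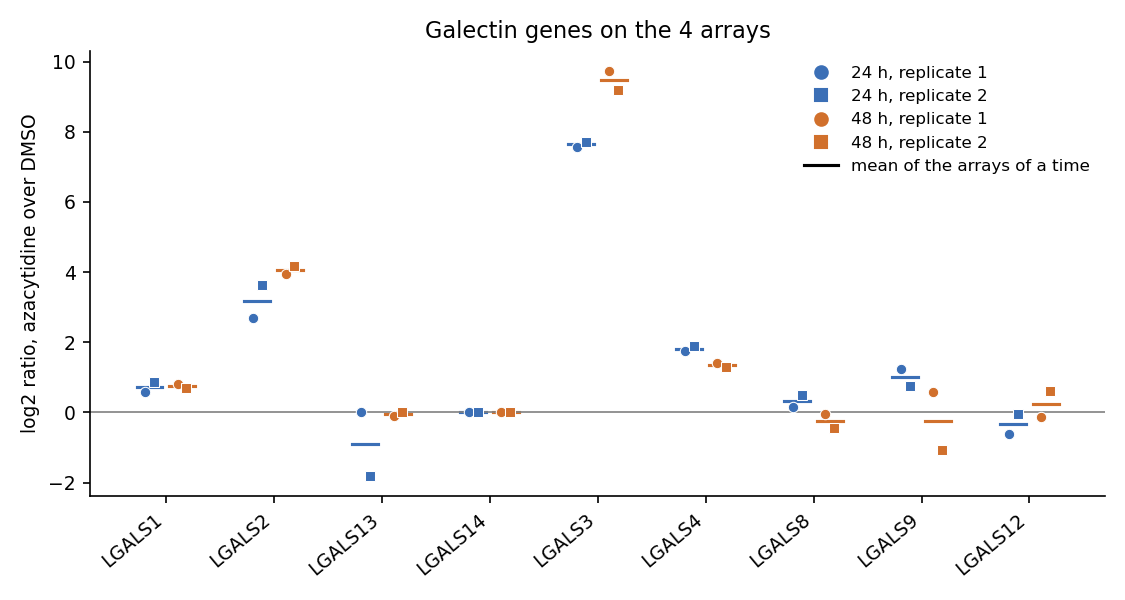
Log2 ratio of azacytidine over DMSO (y axis) for the 9 galectin genes (x axis, ordered as prototype, chimera and tandem repeat), with a point for each array and a bar for the mean of the 2 arrays of a time. LGALS3 lies between 7.57 and 9.73, LGALS2 between 2.70 and 4.18, and all other galectins below 2.

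In a limma fit of all 18334 genes, each time was tested against 0 with Benjamini-Hochberg adjustment over all genes and a threshold of 0.05. At 24 h 4 of the 9 galectins passed upward and 0 downward, while 14.3% of all genes passed upward and 9.97% downward. At 48 h it was again 4 upward and 0 downward, against 18.2% and 20.7% of all genes. The 4 were LGALS1, LGALS2, LGALS3 and LGALS4 at both times. The median galectin ratio was 0.72 at 24 h and 0.24 at 48 h, and that of all genes was 0 at both. The list was selected on these same ratios, so nothing is read from these counts. The fit rests on 2 residual degrees of freedom, and without 24 h replicate 1, or without 24 h replicate 2, limma passed 0 genes of the whole table at either time, although 6313 genes kept an unadjusted p under 0.05 at 48 h.

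The change from 24 h to 48 h was not the contrast by which the galectins were listed, although all 4 arrays were in view when the list was made. Of the 9 genes 1 passed upward, LGALS3, and 0 passed downward, against 9.83% and 13.1% of all genes. Its 48 h ratio was higher by 1.82 ± 0.242 (SE, n = 2 arrays a time; limma adjusted p = 0.0419). The other 8 did not pass the limma test. LGALS2 differed by 0.90 ± 0.409 (SE; limma adjusted p = 0.204) and LGALS4 by -0.47 ± 0.0876 (SE; limma adjusted p = 0.0571). LGALS9 and LGALS8 were lower at 48 h on both arrays, by -1.26 ± 0.733 and -0.58 ± 0.224 (SE), with limma adjusted p of 0.29 and 0.159. LGALS1 differed by 0.03 ± 0.134 (SE; limma adjusted p = 0.917).

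The LGALS3 increase depended on how the arrays were put on a common scale. Ratios spread more widely at 48 h, where their SD over genes was 1.07 and 1.28 per array, than at 24 h, where it was 0.915 and 0.954. With the arrays scaled to equal spread the LGALS3 difference turned to -0.93 (limma adjusted p = 0.7), and with quantile normalization it was 0.55 (limma adjusted p = 0.357). It also lost the call with robust variances (limma adjusted p = 0.0544) and without 24 h replicate 1 or 24 h replicate 2 (limma adjusted p = 0.243 and 0.239). Over all alternatives tried its limma adjusted p ranged from 0.0132 to 0.7. The LGALS2 difference turned to -0.28 with the arrays scaled, whereas LGALS4 was lower at 48 h under every alternative tried, by -0.39 to -1.01.

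Other genes with a galectin symbol were measured but were not listed as members. LGALS7 and LGALS7B, neighbouring copies that encode the same epithelial prototype galectin, galectin-7, had ratios of 1.44 ± 0.0251 and 2.02 ± 0.0524 at 24 h and of 2.96 ± 0.146 and 3.05 ± 0.059 at 48 h. The arrays of the times did not overlap for either. The increases were 1.52 ± 0.0992 and 1.03 ± 0.0638 (SE; limma adjusted p = 0.0257 and 0.0249), and with the arrays scaled they were 0.84 and 0.23 (limma adjusted p = 0.177 and 0.768). The 2 features of LGALS7B differed, with 24 h means of 1.31 ± 0.18 and 2.73 ± 0.285 and 48 h means of 2.66 ± 0.25 and 3.43 ± 0.368. Each feature thus spread more widely over the arrays of a time than their mean, on which the LGALS7B test rests. Features of such near-identical copies may not tell them apart.

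LGALS9C, a near-identical copy of LGALS9, was higher at 48 h on both arrays. Its ratios were 1.15 and 1.22 at 24 h and 1.90 and 2.18 at 48 h, higher by 0.85 ± 0.13 (SE; limma adjusted p = 0.0468), whereas the LGALS9 feature was below 0 on 48 h replicate 2. With the arrays scaled the LGALS9C difference was 0.33 (limma adjusted p = 0.283). Its 2 features also differed, with 48 h means of 3.03 ± 0.487 and 1.04 ± 0.0932. The difference between LGALS9 and LGALS9C was not tested. LGALSL, a galectin-like gene, lay between -0.15 and -0.59 on all arrays as a mean over 2 features. Those features had opposite signs at 24 h, with means of -0.59 and 0.21, and had 48 h means of -0.17 and -0.58. LGALS16 and CLC, which encodes the eosinophil galectin-10, were listed at 0 on all arrays.

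**Figure D3:**
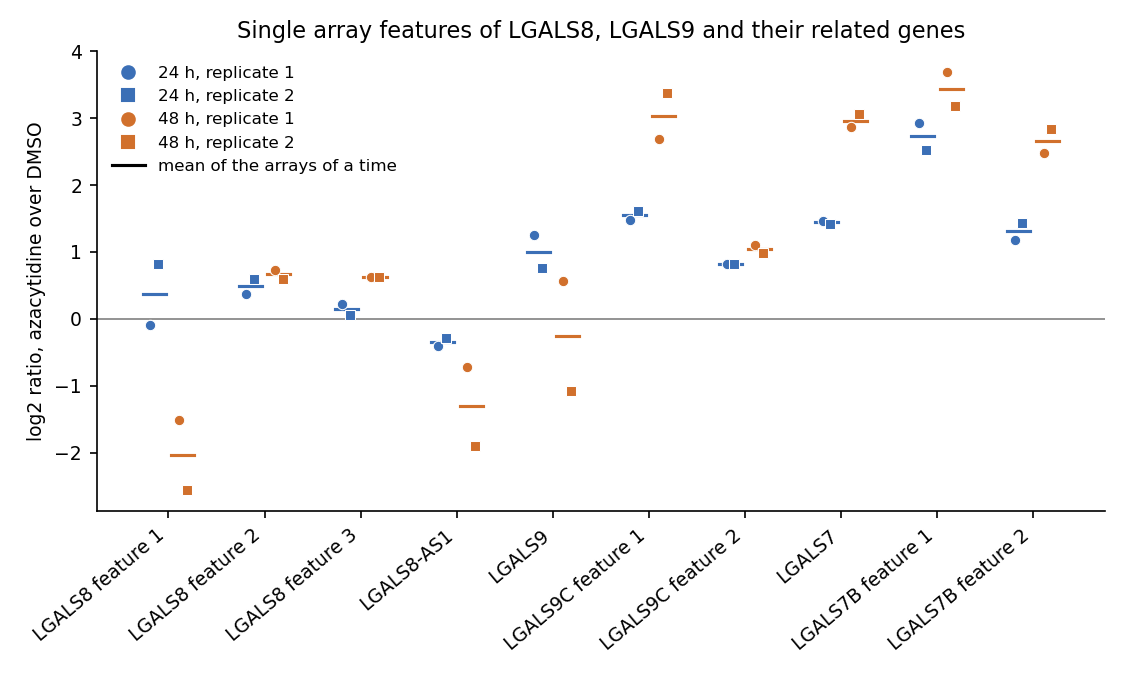
Log2 ratios (y axis) of the single array features of LGALS8, LGALS9 and related genes (x axis), with a point for each array and a bar for the mean of a time. An LGALS8 feature and LGALS8-AS1 lie below 0 at 48 h while the other LGALS8 features lie above it, and both LGALS9C features lie above LGALS9 at 48 h.

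The genes whose ratios over the 4 arrays lay nearest to those of LGALS3 were found by Euclidean distance on the log2 scale, which weighs the size of a ratio as well as its course. PIP, which encodes prolactin-induced protein, a secretory protein of apocrine glands, was nearest at a distance of 0.914. Its ratios were 7.61 and 8.44 at 24 h and 9.51 and 9.70 at 48 h, so PIP and LGALS3 took the top places at both times. The second nearest gene is not reported here. RHOXF2B, an X-linked homeobox gene of the testis, was the third at 3.57, TRIM43 the fourth at 4.04 and TKTL1, which encodes a transketolase-like protein, the fifth at 4.40.

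No measured gene among the 2 nearest on each side of LGALS3 or LGALS2 had a mean ratio above 1 at either time. The 2 nearest measured genes on each side of each galectin, members left out, gave 31 neighbours in the order of the RefSeq gene table. Of these 6 passed upward and 2 downward at 24 h (19.4% and 6.45%), and 7 upward and 9 downward at 48 h (22.6% and 29.0%), in the same limma fit. The shares of all genes were 14.3% and 9.97% at 24 h and 18.2% and 20.7% at 48 h. LGALS7, LGALS7B, LGALS16 and CLC, galectin genes outside the listed members, were counted among the neighbours. Of them LGALS7 and LGALS7B passed upward at both times. At 0 on all arrays were 3 of the 31 neighbours and 1089 of all genes. The median neighbour ratio was 0 at both times, as was that of all genes.

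LGALS3 on chromosome 14 stood between genes with ratios near or below 0. MAPK1IP1L, the nearest on one side, had a mean of 0.23 at 24 h and of -1.03 at 48 h (limma adjusted p = 0.357 and 0.0303). On the other side DLGAP5, which encodes a mitotic spindle protein, was lower at both times, with -1.59 and -1.56 at 24 h and -2.19 and -2.31 at 48 h (limma adjusted p = 0.0131 and 0.00714). The next genes outward, SOCS4 and FBXO34, had 48 h means of -2.19 and -0.71 (limma adjusted p = 0.00825 and 0.0211). All 4 neighbours were thus lower in treated cells at 48 h while LGALS3 was at its highest. SOCS4, a suppressor of cytokine signalling, moved from 0.42 to -2.19 between the times, a difference of -2.60 (limma adjusted p = 0.0232).

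On chromosome 22 LGALS2 and LGALS1 lie close together, with GGA1 and SH3BP1 between them. GGA1, a trafficking adaptor, had means of -0.48 at 24 h and 0.40 at 48 h (limma adjusted p = 0.0523 and 0.0541). SH3BP1 was lower at both times, at -0.94 and -0.43 (limma adjusted p = 0.0217 and 0.0419). CDC42EP1, on the other side of LGALS2, had ratios of 0.80 and 0.55 (limma adjusted p = 0.0404 and 0.0529), and NOL12, beyond LGALS1, of 0.39 and -0.56 (limma adjusted p = 0.286 and 0.141). None of these 4 reached the LGALS2 ratio.

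LGALS4 on chromosome 19 lies beside LGALS7B and LGALS7, so that 3 galectin genes in a row had ratios above 1 on all 4 arrays. The nearest gene on its other side, ECH1, which encodes a mitochondrial and peroxisomal enzyme of fatty acid oxidation, had a mean of 0.41 at 24 h and of -1.65 at 48 h (limma adjusted p = 0.236 and 0.0225). The placental galectins lie elsewhere on chromosome 19. LGALS16 and CLC, beside LGALS13 and LGALS14, were at 0, and EID2 had means of 0.12 and -0.36 (limma adjusted p = 0.862 and 0.447). Next to CLC, LEUTX, a homeobox gene of the early embryo, had ratios of 4.23 and 4.61 at 24 h and 5.74 and 6.31 at 48 h (limma adjusted p = 0.0151 and 0.00745). LEUTX is not the nearest measured gene to a galectin and was chosen after its values were seen, as were the other genes named here that lie second from a galectin.

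The remaining galectins had neighbours of both signs. Beside LGALS8 on chromosome 1, EDARADD, an adaptor of ectodysplasin signalling, had a mean of 1.04 at 24 h and of -1.75 at 48 h (limma adjusted p = 0.0282 and 0.0111). LGALS8-AS1, transcribed antisense to LGALS8, had -0.34 and -1.31 (limma adjusted p = 0.547 and 0.0829), the sign of the L78132 feature of LGALS8 at 48 h. Beside LGALS12 on chromosome 11, the phospholipase genes PLAAT4 and PLAAT5 had 48 h means of 1.22 and 1.09 (limma adjusted p = 0.0126 and 0.0242). Beside LGALS9 on chromosome 17, KSR1 and NOS2 did not pass at either time, with means from -0.22 to 0.27.

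**Figure D4:**
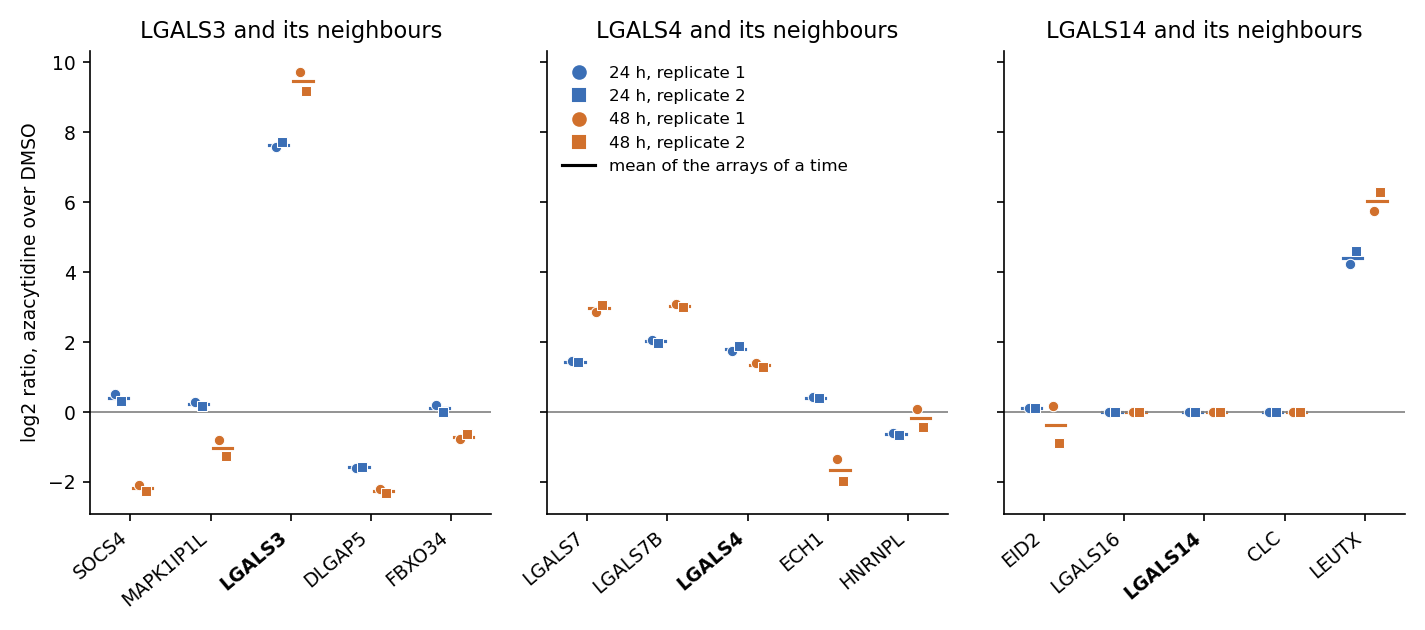
Log2 ratios (y axis) of LGALS3, LGALS4 and LGALS14 (bold) and of the 2 nearest measured genes on each side, in chromosomal order (x axis). Other listed galectins are left out. A point stands for each array and a bar for the mean of a time. LGALS3 stands alone above its neighbours, and LGALS4 lies in a run of 3 galectin genes above 1. LGALS14 lies between LGALS16 and CLC at 0, with EID2 between -0.88 and 0.16 and LEUTX above 4.

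Genes that galectins act with were read from 3 lists, of glycoprotein ligands, of enzymes that build their glycans, and of the response to damaged membranes. The shares of all genes count 1089 genes at 0 on all arrays, which could not pass, and the 3 lists hold 0 such genes. In a limma fit without those genes, 5651 of 17245 passed at 24 h, 3268 of them upward. At 48 h 8529 passed, 4031 of them upward. The shares of all genes are thus lower than among genes with a ratio other than 0. Of 26 ligand genes 12 passed upward and 1 downward at 24 h (46.2% and 3.85%), and 8 upward and 5 downward at 48 h (30.8% and 19.2%), against 14.3% and 9.97% and then 18.2% and 20.7% of all genes. Their median ratio was 0.58 at 24 h and 0.33 at 48 h, against 0 for all genes.

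CD44, the hyaluronan receptor and a galectin-3 and galectin-9 ligand, had the highest ratio of the ligands. It was 4.93 and 5.29 at 24 h and 5.01 and 5.43 at 48 h, with means of 5.11 ± 0.25 and 5.22 ± 0.303 (limma adjusted p = 0.0133 and 0.00734). MCAM, an adhesion molecule bound by galectin-1 and galectin-3, rose to 1.64 ± 0.0189 and 2.53 ± 0.0002 (limma adjusted p = 0.0126 and 0.00714). MUC1, the epithelial mucin bound by galectin-3, rose to 1.35 ± 0.101 and 1.59 ± 0.0177 (limma adjusted p = 0.0135 and 0.00736). In each of these genes all 4 arrays were above 1.

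Among ligands past the threshold with all 4 arrays of one sign, NRP1, INSR and PDGFRB had the lowest averages of both times. NRP1, a co-receptor for VEGF and a galectin-1 ligand, fell to -1.03 and -1.47 (limma adjusted p = 0.0151 and 0.00745). INSR, the insulin receptor, had -0.29 and -0.34 (limma adjusted p = 0.0547 and 0.0321). PDGFRB, a growth factor receptor, was above 0 on all 4 arrays, with means of 0.26 ± 0.332 and 0.97 ± 0.106 (limma adjusted p = 0.319 and 0.034). LGALS3BP, which encodes the secreted galectin-3 binding protein and was named outside the rule, had 0.89 and 0.76 (limma adjusted p = 0.0412 and 0.0384). Its features parted at 48 h, at 1.33 and 0.20.

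Several ligands were higher at 24 h and lower at 48 h. The following were chosen after their values were seen. LAMP1, a lysosomal membrane glycoprotein, went from 1.22 to -0.87, a difference of -2.08 (limma adjusted p = 0.0282). ITGB1, the beta 1 integrin, went from 0.79 to -2.55, a difference of -3.34, and TFRC, the transferrin receptor bound by galectin-3, from 1.79 to -2.26, a difference of -4.04 (limma adjusted p = 0.0211 for both). Over the list, 3 genes passed upward and 6 downward in the contrast of times (11.5% and 23.1%), against 9.83% and 13.1% of all genes.

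The glycan list held 28 genes for branching N-glycans, adding lactosamine and capping it with sialic acid. Of these 6 passed upward and 1 downward at 24 h (21.4% and 3.57%), and 4 upward and 8 downward at 48 h (14.3% and 28.6%), against 14.3% and 9.97% and then 18.2% and 20.7% of all genes. The median was 0.45 at 24 h and -0.27 at 48 h, against 0 for all genes. In the contrast of times 1 passed upward and 8 downward (3.57% and 28.6%), against 9.83% and 13.1% of all genes. The share of members above 0 was 78.6% at 24 h and 28.6% at 48 h, and that of all genes was 48.0% and 44.3%. Among those lower at 48 h was MGAT5, the branching enzyme that makes the preferred galectin-3 ligand, which went from 0.30 to -0.31, a difference of -0.61 (limma adjusted p = 0.0446). Larger changes, chosen after their values were seen, were those of B3GNT2 from 1.37 to -2.66 ± 1.23, GCNT2 from 0.48 to -2.04 and ST3GAL4 from 1.08 to -0.87. Tested against 0, all of these passed downward at 48 h (limma adjusted p = 0.0487, 0.012 and 0.00851). At 24 h ST3GAL4 passed upward, and B3GNT2 and GCNT2 did not (limma adjusted p = 0.0133, 0.176 and 0.114). In the contrast of times GCNT2 and ST3GAL4 passed downward, and B3GNT2 did not (limma adjusted p = 0.028, 0.0211 and 0.0564).

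B3GNT8 and GCNT3 were higher at both times. B3GNT8, which extends lactosamine chains, rose to 1.87 at 24 h and 3.60 at 48 h (limma adjusted p = 0.0243 and 0.0091), a difference of 1.73 (limma adjusted p = 0.0444) that was 0.85 with the arrays scaled. GCNT3, a mucin core branching enzyme, rose to 2.91 and 2.57 (limma adjusted p = 0.0272 and 0.0222). MGAT3, which adds the bisecting residue, had 1.22 and 0.17 on the 24 h arrays, a mean of 0.70 ± 0.743, and a mean of 1.77 ± 0.231 at 48 h (limma adjusted p = 0.241 and 0.0451). B3GNT3 had 1.05 and 0.41 at 24 h, and the means were 0.73 ± 0.451 and 1.23 ± 0.257 (limma adjusted p = 0.125 and 0.0428). ST3GAL3, a sialyltransferase, fell to -0.75 and -1.19 (limma adjusted p = 0.0363 and 0.0146). ST6GAL1, whose alpha 2,6 sialic acid is known to block galectin binding, had -0.31 and -0.29 and did not pass (limma adjusted p = 0.0753 and 0.0695); it was named outside the rule, as was MGAT5.

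Of 17 genes listed for the response to damaged membranes 15 were measured. At 24 h 5 passed upward and 1 downward (33.3% and 6.67%), and at 48 h 7 upward and 3 downward (46.7% and 20.0%), against 14.3% and 9.97% and then 18.2% and 20.7% of all genes. The downward share at 48 h was near that of all genes. The median ratio was 0.46 and then 0.03, against 0 for all genes. TFEB, the transcription factor of lysosomal genes, rose to 1.18 and 1.07 (limma adjusted p = 0.0151 and 0.00968). PRKAA1, a catalytic subunit of AMPK, rose to 0.69 and 1.17 (limma adjusted p = 0.0357 and 0.0133), and OPTN, an autophagy receptor, to 1.02 and 0.38 (limma adjusted p = 0.0133 and 0.0155). SQSTM1, another autophagy receptor, rose to 0.46 and 0.25 (limma adjusted p = 0.0192 and 0.0257). SLC38A9, a lysosomal amino acid sensor, fell to -0.96 and -0.26 (limma adjusted p = 0.0134 and 0.0285), and MTOR had -0.10 and -0.31 (limma adjusted p = 0.31 and 0.0461). The other downward call at 48 h was GABARAP, chosen after its values were seen. Its means were 0.42 at 24 h and -1.63 at 48 h (limma adjusted p = 0.305 and 0.0305). Across the 3 lists, the 48 h calls of INSR, PDGFRB, LGALS3BP, GCNT3, MGAT3, B3GNT3, SQSTM1 and MTOR were lost with the arrays scaled to equal spread, and those of INSR, OPTN, SQSTM1, SLC38A9 and MTOR were lost without features listed at 0.

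**Figure D5:**
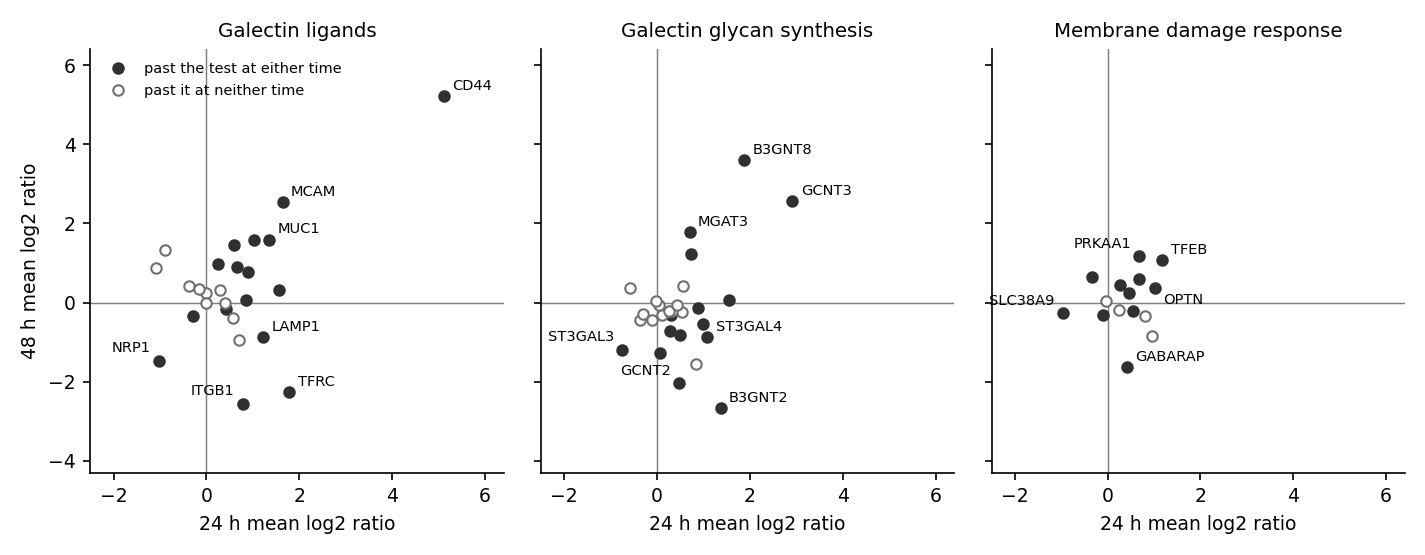
Mean log2 ratio at 24 h (x axis) against that at 48 h (y axis) for genes of 3 lists, a point for each gene. Filled points passed limma at either time. CD44 lies highest among ligands at 5.11 and 5.22, and ITGB1, TFRC and LAMP1 lie right of 0 and below it.

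Galectins are also abundant in macrophages, stroma and placenta, so markers of those tissues were read beside them. Of 12 measured macrophage and leukocyte markers 3 passed upward and 0 downward at 24 h (25.0% and 0%) and 7 upward and 0 downward at 48 h (58.3% and 0%), against 14.3% and 9.97% and then 18.2% and 20.7% of all genes. Their ratios summed to 8.13 and 9.60 on the 24 h arrays and to 16.5 and 17.8 on the 48 h arrays. In the contrast of times 0 of the 12 passed in either direction, against 9.83% and 13.1% of all genes. CD3E and CD79A had means of -1.24 and -0.90 at 24 h and of 1.60 and 1.25 at 48 h, and both missed the threshold at each time. TYROBP went from 1.12 to 2.91, LYZ from 0.02 to 0.32 and CD163 from 0.36 to -0.15. CSF1R had means of 3.25 and 4.10, CD68 of 2.83 and 2.45 and ITGAM of 2.33 and 2.10, whereas PTPRC, which defines leukocytes, was listed at 0 on 3 arrays and at -0.03 on the other. The part of these genes in the galectin ratios was not tested. Of 10 stromal markers 2 passed upward and 0 downward at 24 h (20.0% and 0%) and 3 upward and 2 downward at 48 h (30.0% and 20.0%). VIM had the highest means of these, 2.05 and 1.68, and LUM had -0.34 and -1.71. Of 10 placental markers 0 passed at 24 h, and 1 passed upward and 0 downward at 48 h (10.0% and 0%). The placental marker INSL4 had high ratios on most arrays, 3.22 and 3.88 at 24 h and 2.59 and 0 at 48 h. It missed the threshold at both times (limma adjusted p = 0.077 and 0.303). ERVW-1 had means of -0.52 and -0.37. Of 9 measured luminal prostate markers 3 passed upward and 2 downward at 24 h (33.3% and 22.2%) and 4 in each direction at 48 h (44.4% each). Among them TRPM8 had means of 4.34 and 3.83, KLK2 of 1.52 and 1.34 and KLK3, which encodes prostate-specific antigen, of 1.17 and 1.16. FOLH1 had -1.26 and -1.70, HOXB13 -1.52 and -1.33 and STEAP2 -0.76 and -0.995.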

How the data were processed

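The deposited table holds log10 ratios of 4 arrays for 45220 features, 43376 of them with a value on every array. Agilent Feature Extraction 8.5.1.1 made them, per the submitters' processing notes. Its background and normalization settings are not given in the sources used here. Neither base nor direction is named in the table: by that software's convention a value was taken to be log10 of red (Cy5) over green (Cy3), and was multiplied by 3.32 to give log2. Each array's median was 0. Intensities were not analysed here, so no background filter could be set, and the number of arrays limits precision.

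Features were named from the platform annotation and the GRCh38.p14 gene table, 93 with several symbols were left out, and features of a gene were averaged. Ratios were fitted with limma 3.58.1 (R 4.3.3), with a mean per time over all 4 arrays, and adjusted over 18334 genes. The fit had 2 residual and 0.735 prior degrees of freedom and was tested on simulated data. The labels put all arrays on one slide, so slide was no batch to test. Figures were drawn with matplotlib 3.10.9.

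The members and lists were chosen with earlier results of these data known. The text names all members; from each of the 3 functional lists, among genes past the threshold with all arrays of one sign, the top 3 and bottom 3 by the average of both times; the nearest measured neighbour on each side; 4 of the 5 genes nearest to LGALS3, the other not being reported here; and DNMT1. Marker genes with values, and others marked so in the text, were chosen after their values were seen. The 24 h and 48 h galectin ratios are a description: limma's calls of them are counted only beside those of all genes.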

Additional observations from a re-analysis of the deposited data

Results flagged for a closer look

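In the limma fit the difference between 48 h and 24 h passed the test for LGALS3 and for 3 galectin genes outside the listed members. The LGALS3 ratio was higher at 48 h by 1.82 on the log2 scale, that of LGALS7 by 1.52, that of LGALS7B by 1.03 and that of LGALS9C by 0.85 (limma adjusted p = 0.0419, 0.0257, 0.0249 and 0.0468). For each of the 4 genes both 48 h arrays lay above both 24 h arrays. The values of LGALS7B and LGALS9C were each a mean over 2 features that differed in size. With the arrays scaled to equal spread none of them passed, at -0.93, 0.84, 0.23 and 0.33 in the same order (limma adjusted p = 0.7, 0.177, 0.768 and 0.283). With quantile normalization LGALS7 and LGALS9C passed, at 1.22 and 0.61 (limma adjusted p = 0.0135 and 0.016), and LGALS3 and LGALS7B did not.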

How the results depend on the processing

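The single-time LGALS3 ratios varied in size with the processing, while no alternative tried could have turned their sign. At 24 h and 48 h they were 9.30 and 8.37 with the arrays scaled to equal spread, 8.19 and 8.74 with quantile normalization, and 2.30 and 2.85 if the values are read as log2. Leaving out each array in turn gave 7.57 to 7.72 at 24 h and 9.20 to 9.73 at 48 h. The LGALS3 difference between times was -0.93 with scaling, 0.55 with quantile normalization, 1.82 with robust variances (limma adjusted p = 0.0544), and 1.55 to 2.09 without each array in turn. The number of galectins called in that contrast went from 1 to 0 with scaling, quantile normalization and robust variances, and lay between 0 and 1 without each array.

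Replicate numbers recur at both times, but deviations of same-numbered arrays correlated at -0.0347 over genes and only 2 pairs exist, so the numbers were not taken to pair arrays. With the replicate number as a block the LGALS3 difference was 1.82 (limma adjusted p = 0.112), and 0 galectins, 0 ligands, 0 glycan genes, 0 membrane damage genes and 0 neighbours were called at any time. In that limma fit 6503 of all genes at 24 h and 8152 at 48 h had an unadjusted p under 0.05.

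With the 48 h arrays alone limma called 0 genes of the whole table at 48 h, against 7116 in the main fit. It thus called 0 genes of each list (6313 of all genes at an unadjusted p under 0.05). The number called at 24 h among glycan genes went from 7 to 14 with scaling, 13 with quantile normalization and 14 with the 24 h arrays alone, and among membrane damage genes from 6 to 10 with scaling. At 48 h it went from 10 to 6 among membrane damage genes without features at 0, and likewise without genes at 0 on all arrays, an alternative chosen after seeing the data. Without each array in turn, numbers called at 24 h and 48 h ran from 0 to 15 and 0 to 13 for ligands, 0 to 14 and 0 to 13 for glycan genes, 0 to 9 and 0 to 10 for membrane damage genes, and 0 to 9 and 0 to 15 for neighbours.

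Signs turned for LGALS8 with the median of features (0.61 at 48 h, 0.20 for the difference), for LGALS9 and LGALS12 at 48 h without 48 h replicate 2 (0.57 and -0.14), and for the difference of LGALS2 with scaling (-0.28). The LGALS1 difference was -0.20 with scaling, -0.10 with quantile normalization, -0.11 without 24 h replicate 1 and -0.03 without 48 h replicate 1, and that of LGALS13 was -0.0551 without 24 h replicate 2. Over the arrays left out in turn, LGALS9 at 48 h reached from -1.07 to 0.57, LGALS12 at 48 h from -0.14 to 0.62, the LGALS1 difference from -0.11 to 0.17 and the LGALS13 difference from -0.0551 to 1.75. With quantile normalization the differences of DLGAP5 and NRP1 were 0.0213 and 0.0501. The causes were not tested. Of 2085 values of other named genes under alternatives, 2 changed sign where the value had passed the test and 34 where it had not, 473 lost a call and 80 gained one. Signal over background was not analysed here, so ratios of dim features have no stated precision.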
